A study of Mus musculus with 48 samples.

Results

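The genes described here are 9 complement components and regulators, C3, C4b, C2, Cfb, Cfi, Cfd, Cd55, Cd59a and C5ar1, read from a table of 55487 Ensembl gene IDs by the IDs that carry these symbols. They were followed through 48 bulk RNA-seq libraries of cultured kidney slices. The mice were males of 2 inbred strains, C57BL/6J and DBA/2J, which founded the BXD panel. Each strain had 8 conditions with 3 libraries each: untreated controls at 6 h and 24 h, tunicamycin at both times, cyclosporin A at both times, normoxia (by its label an ischemia model) and normoxia-hyperoxia (by its label a reperfusion model). The titles give 24 h for both oxygen conditions. Tunicamycin blocks N-linked glycosylation in the endoplasmic reticulum, and cyclosporin A is a calcineurin inhibitor with known kidney toxicity. All groups share sex, tissue and slice culture. The sources used here do not give ages, doses, the oxygen that control slices received or when oxygen was switched. The titles name controls and drugs as nephrotoxicity, normoxia as ischemia and normoxia-hyperoxia as reperfusion. Library names begin with a different number at 6 h, in 24 h controls and drugs, and in each oxygen condition. What that number marks is not given. In each comparison of an oxygen condition with 24 h controls, and between the oxygen conditions, the set and the condition cannot be told apart.

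Complement is a cascade of plasma and cell-bound proteins that marks surfaces for removal, recruits leukocytes and forms a membrane pore. The classical and lectin pathways cleave C4 and C2 into a C3 convertase, while the alternative pathway builds its convertase from C3 and factor B (Cfb), which factor D (Cfd) cleaves. Factor I (Cfi) degrades the active forms of C3 and C4, CD55 accelerates the decay of convertases, CD59 blocks the pore, and the C5a fragment acts through the receptor C5aR1 on myeloid cells. Most circulating complement is made by the liver, but kidney tubule cells also make components such as C3, C4 and factor B, and the alternative pathway is well known in renal ischemia and reperfusion injury.

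Library totals ran from 5619309 to 25137581 counts. The lowest belonged to DBA/2J under normoxia-hyperoxia, replicate 2, and the next lowest was 12384733. Mitochondrial genes took between 3.11% (DBA/2J cyclosporin A, 24 h) and 25.6% (C57BL/6J normoxia) of the counts. All 8 kidney epithelium markers on the list (Lrp2, Slc34a1, Cubn, Umod, Slc12a1, Slc12a3, Aqp2 and Nphs1) were detected, and their summed level lay between 11750 and 20260 CPM (counts scaled to the library's total) in all 6 h and oxygen groups and between 2616 and 9295 CPM in the 24 h control and drug groups. In bulk slices, fewer cells of a type and less RNA per cell cannot be told apart.

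Of the members, 3 lie together on chromosome 17 of GRCm38 (GENCODE M21), all on the minus strand, in the class III region of the major histocompatibility complex: C4b at chr17:34728380-34743882, Cfb at chr17:34856374-34862518 and C2 at chr17:34862604-34898265. Their near copy C4a, known as sex-limited protein and lacking the hemolytic activity of C4, lies at chr17:34809092-34823464, 65210 bases from C4b. The longest annotated transcripts of C4b and C4a were 96.1% identical over 5367 aligned bases, and 35.2% of the 50-base windows of the C4b transcript also occurred in C4a. A read from such a window cannot be told apart between them. The 100 coding bases of C4b from position 1153 (counted from its start codon) to 1252 are among those that do separate the genes. They show sequence by which a read can be given to C4b or to C4a. No ungapped coding stretch of this length differed more, so that others separate the genes at most as well. The whole alignment held 207 mismatches. The 15 bases that differ are in capitals (5′ to 3′ on the sense strand).
C4b: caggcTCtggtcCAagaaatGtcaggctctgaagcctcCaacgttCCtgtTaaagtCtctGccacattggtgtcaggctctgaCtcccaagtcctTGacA
C4a: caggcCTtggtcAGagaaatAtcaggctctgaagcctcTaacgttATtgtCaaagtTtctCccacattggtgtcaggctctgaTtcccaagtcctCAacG

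Cfb and C2 share no exon base with each other, but the annotated readthrough gene Gm20547 covers 2246 exon bases of Cfb (79.5%) and 1656 of C2 (42.8%) and has 0 exon bases of its own. In every library Gm20547 nevertheless held between 0.998 and 1.11 counts per count of Cfb. Its counts therefore cannot be told from those of Cfb and C2, it was given no result, and the values of Cfb and C2 count reads that may also have been counted for it.

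**Figure D1:**
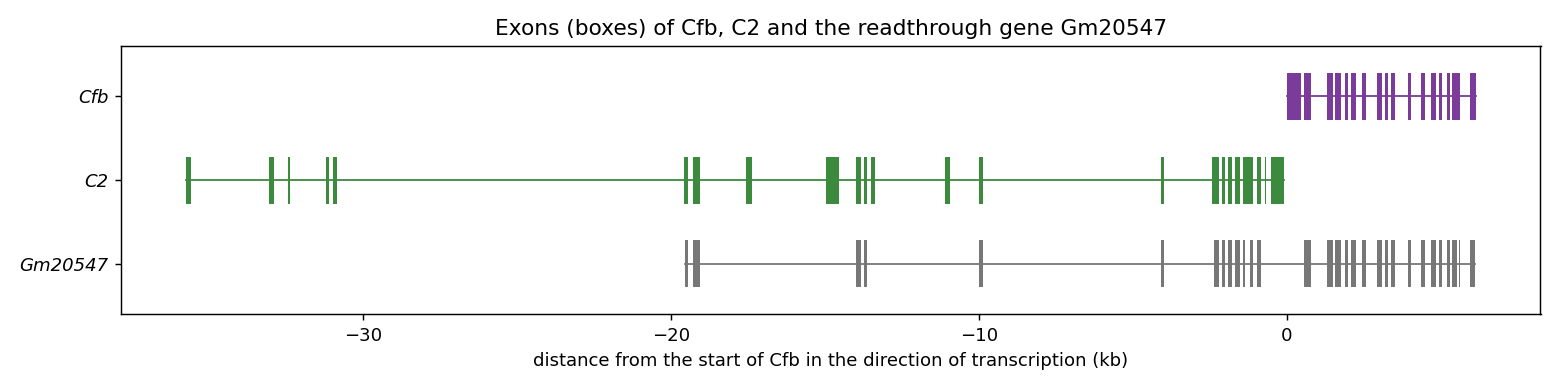
Exons (boxes, to scale) and introns (lines) of Cfb, C2 and the readthrough gene Gm20547, by distance in kb from the start of Cfb in the direction of transcription. Every exon base of Gm20547 lies in an exon of Cfb or C2, with 1656 bases in C2 and 2246 in Cfb.

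Of the remaining members, C3 lies at chr17:57203970-57228136 on the minus strand, Cfi at chr3:129835884-129875332 and Cfd at chr10:79890853-79892655 on the plus strand, Cd55 at chr1:130439027-130462744 on the minus strand, Cd59a at chr2:104095801-104115354 on the plus strand and C5ar1 at chr7:16246743-16259540 on the minus strand. Cd59a and its near copy Cd59b shared 3.98% of 50-base windows, and Cd55 and Cd55b shared 10.7%. Promoter sequence in the RefSeq table (GRCm38.p6) matched 5 of the 9 members: C3, Cfd, Cd55, Cd59a and C5ar1. The 250 bases before the start of C3 (chr17:57228137-57228386, minus strand) and of Cd59a (chr2:104095551-104095800, plus strand) are shown because these members were called higher under normoxia-hyperoxia than in 24 h controls and than under normoxia. Capitals mark a match to the C/EBP letters TTGCNNAA in C3, from 45 to 38 bases before the start, and a match to an interferon regulatory factor (IRF) motif in Cd59a, from 187 to 178 bases before it.
C3: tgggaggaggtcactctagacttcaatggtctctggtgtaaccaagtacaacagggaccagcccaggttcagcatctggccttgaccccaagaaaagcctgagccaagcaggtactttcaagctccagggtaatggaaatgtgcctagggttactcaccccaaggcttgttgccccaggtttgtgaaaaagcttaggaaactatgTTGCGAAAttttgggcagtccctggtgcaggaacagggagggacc
Cd59a: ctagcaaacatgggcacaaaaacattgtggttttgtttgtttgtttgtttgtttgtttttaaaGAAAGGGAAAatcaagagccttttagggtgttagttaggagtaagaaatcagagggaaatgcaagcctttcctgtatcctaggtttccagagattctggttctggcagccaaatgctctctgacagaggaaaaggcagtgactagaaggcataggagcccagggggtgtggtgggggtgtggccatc
Searched on both strands, the C/EBP letters were present in 9.56% and the IRF motif in 2.98% of the 32851 promoter windows of this length. C5ar1 and Cfd held no match to any of the 6 motifs searched (these 2, the interferon-gamma activated site TTCNNNGAA, NF-kappaB, the hypoxia response core ACGTG and NRF2 as TGACNNNGC), and Cd55 held 1 match to NF-kappaB. A match is a run of letters and not a site of binding.

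Of the 9 members, 8 had counts in all 48 libraries. Cfd, the factor D protease that in mice is made mainly by adipocytes, had 4 counts in total, 3 and 1 in C57BL/6J cyclosporin A libraries at 24 h (replicates 1 and 2), and 0 in the other 46. A count of 0 allows up to 3 counts, which is 0.119 to 0.534 CPM over these libraries, so a level below that was not detectable at this depth. Beside this, the defining adipocyte markers Adipoq, Plin1, Lep, Retn and Cidec reached at most 0.729 CPM in any library, and all 3 libraries were at 0 for Adipoq in 6 of 16 groups and for Lep in 10. Fabp4, which endothelial cells also express, ranged from 37.01 to 272 CPM. Cfd did not pass the filter on low counts in any comparison.

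**Figure D2:**
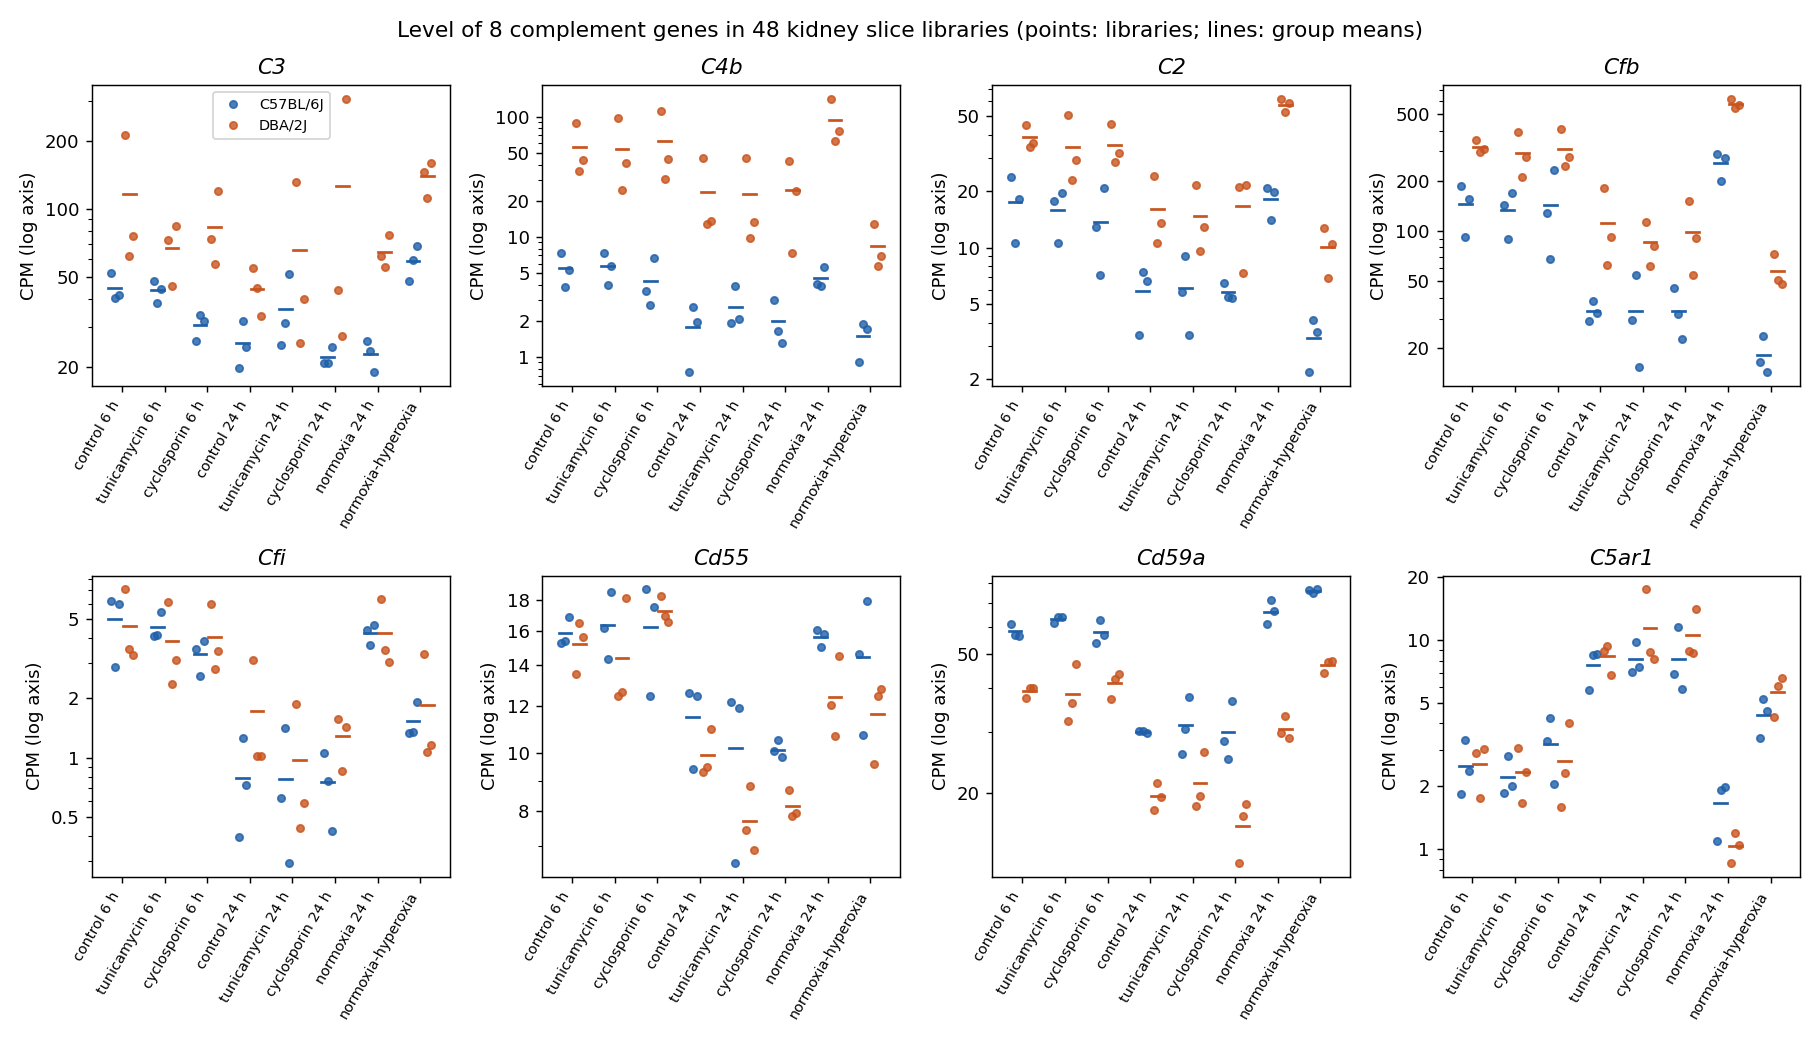
Level of the 8 measured members in CPM (log axis) in each of the 48 libraries (points) by condition, with group means as lines, C57BL/6J in blue and DBA/2J in orange. Cfb ran from 14.3 to 621 CPM, and C4b separates the strains in every condition.

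Per kilobase of exon, Cfb had the highest level of the members in 11 of 16 groups. In DBA/2J under normoxia it stood at 205 CPM per kb, followed by Cd59a at 16.9, C4b at 16.4, C2 at 14.9, C3 at 12.6, Cd55 at 2.56, Cfi at 1.93 and C5ar1 at 0.404 CPM per kb. In C57BL/6J 24 h controls the order began with Cd59a at 16.5 and Cfb at 11.8 CPM per kb and ended with Cfi at 0.357 and C4b at 0.309. The spread between the lowest and the highest of the 16 group means was 62.5-fold for C4b, 31.9-fold for Cfb, 17.5-fold for C2, 11.1-fold for C5ar1, 6.67-fold for Cfi, 6.31-fold for C3, 4.72-fold for Cd59a and 2.23-fold for Cd55. Sorted by group mean CPM, neighbouring groups overlapped in their libraries in 15 of 15 cases for C3, C4b, Cfi and C5ar1, 14 for Cd55, 12 for C2, and 11 for Cfb and for Cd59a. For Cfb, DBA/2J normoxia (578 CPM) stood clear at the top. C57BL/6J normoxia-hyperoxia had the lowest mean (18.1 CPM, libraries up to 23.6), below all C57BL/6J 24 h control libraries, but it overlapped tunicamycin (from 15.4 CPM) and cyclosporin A (from 22.6 CPM) at 24 h in that strain. For Cd59a, C57BL/6J normoxia-hyperoxia (76.2 CPM) stood clear at the top.

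The first comparison asked how the genes changed in untreated slices between 6 h and 24 h of culture. Over both strains, 7 members were lower at 24 h (Cfi, Cfb, C4b, C2, C3, Cd59a and Cd55) and C5ar1 was higher. That is 8 of the 8 tested, where 72% of the 16962 genes tested were called at an adjusted p under 0.05 (34.7% higher and 37.4% lower). The median log2 fold change of the members was -1.47 and that of all genes -0.02. In both strains, the 24 h libraries lay below all 6 h libraries for C3, C2, Cfb, Cfi, Cd55 and Cd59a, as for 20.6% of all genes, and above them for C5ar1, as for 35.2%. In DBA/2J, C4b overlapped.

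Normoxia was then compared with 24 h controls. Again all 8 tested members were called, now with 7 higher and C5ar1 lower, beside 82% of 17375 genes called (42.4% higher, 39.7% lower). The largest rise was that of Cfb. The median log2 fold change of the members was 1.55 against 0.05 for all genes. Libraries did not overlap in either strain for C4b, C2, Cfb and Cd59a, all higher, as for 26% of all genes, and for C5ar1, lower, as for 39.9%.

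Under normoxia-hyperoxia against the same 24 h controls, C3, Cd59a and Cd55 were higher and Cfb and C5ar1 lower, 5 of the 8 tested, beside 68.2% of 17256 genes called (34.1% in each direction). The median log2 fold change of the members was -0.03, and that of all genes 0.00. C4b, C2 and Cfi did not pass. With replicate number as a block, and also without the filter on low counts, all 8 passed (4 higher, 4 lower). C3 and Cd59a (higher) and C5ar1 (lower) did not overlap in either strain, as for 17.8% of genes higher and 33.1% lower. This comparison shares its 24 h controls with the one before.

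Set directly against normoxia, normoxia-hyperoxia had lower C4b, C2, Cfb and Cfi and higher C3, Cd59a and C5ar1, 7 of the 8 tested, with 73.5% of 17228 genes called (37% higher, 36.5% lower). The median log2 fold change of the members was -0.80, and that of all genes 0.02. In both strains the libraries did not overlap for C4b, C2 and Cfb, lower, as for 25.3% of genes, and for C3, Cd59a and C5ar1, higher, as for 28.4%. Of these 3 states at 24 h, C4b, C2 and Cfb had their highest means under normoxia, C3 and Cd59a under normoxia-hyperoxia, and C5ar1 in the controls. The shares of members called were near or modestly above those of all genes in these 4 comparisons, in which most genes were called.

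**Figure D3:**
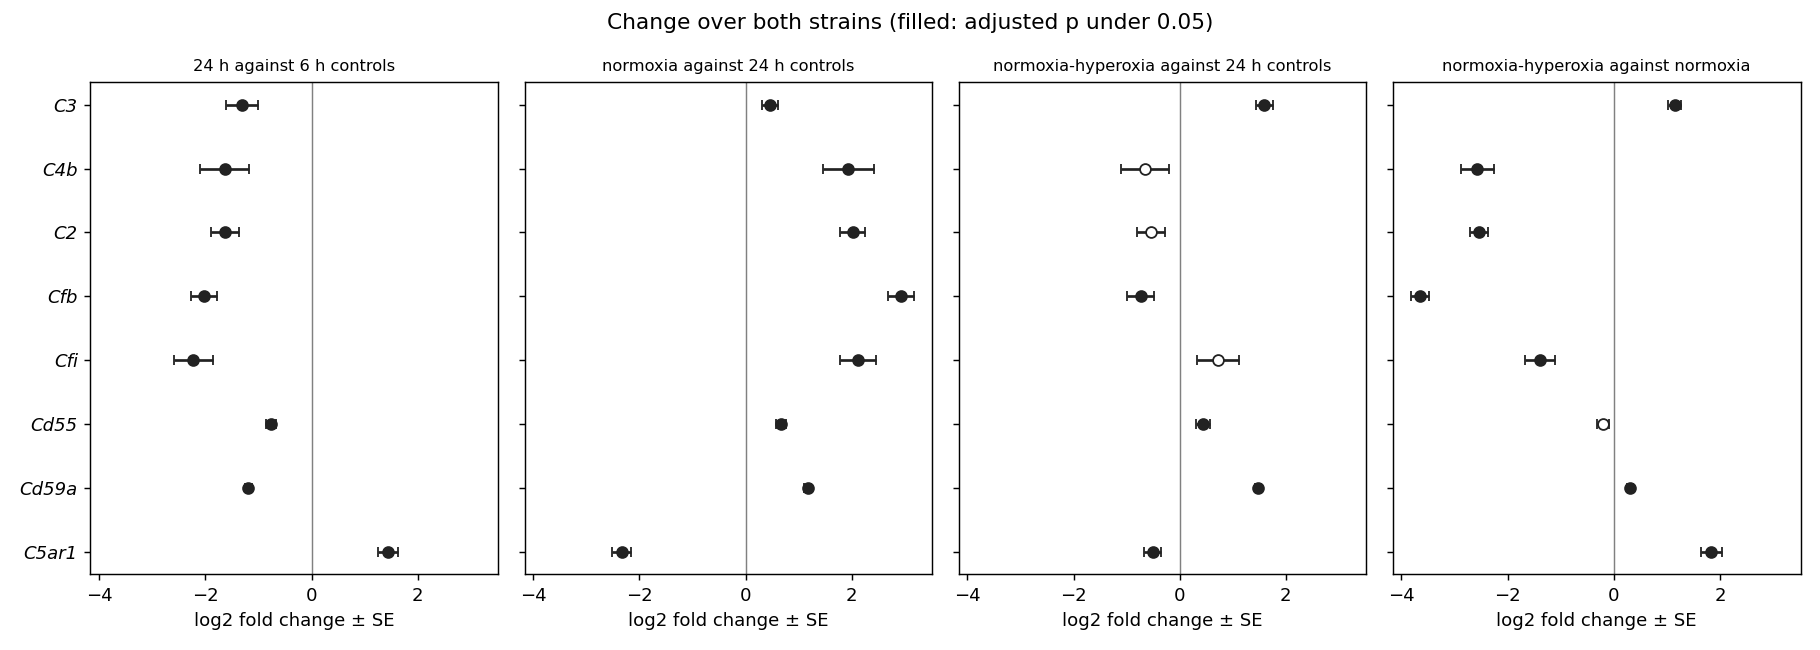
Log2 fold change over both strains, with its standard error, of the 8 measured members in 4 comparisons of 12 libraries each (filled points passed an adjusted p of 0.05 by edgeR's quasi-likelihood test). Cfb, C2 and C4b lie to the right in the normoxia panel and to the left under normoxia-hyperoxia against normoxia, while C5ar1 does the reverse.

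C3, the central component cleaved by every pathway, was measured at 52.4, 40.6 and 41.8 CPM in C57BL/6J 6 h controls and at 19.9, 31.9 and 24.6 CPM at 24 h. In DBA/2J it stood at 212, 61.9 and 76.4 CPM at 6 h and at 55.0, 44.8 and 33.8 CPM at 24 h. All 24 h libraries lay below the 6 h libraries of their strain, and 1 DBA/2J 6 h library (replicate 1) was far above the other two. C3 fell by 1.31 ± 0.30 on the log2 scale (SE, edgeR adjusted p = 0.0023), and by 0.94 without that library.

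Under normoxia C3 was at 26.1, 23.5 and 18.98 CPM in C57BL/6J and at 62.0, 55.3 and 76.5 CPM in DBA/2J. The C57BL/6J libraries overlapped their 24 h controls and the DBA/2J libraries lay above theirs. The rise over both strains was 0.46 ± 0.15 on the log2 scale (edgeR adjusted p = 0.014), 0.06 ± 0.22 in C57BL/6J and 0.86 ± 0.21 in DBA/2J. It was not called when all 48 libraries were fitted together (edgeR adjusted p = 0.33). The difference between the strains' responses was 0.80 ± 0.30 (edgeR adjusted p = 0.094). That difference passed with DESeq2 (adjusted p = 0.042) and without the low-count filter. Leaving out 1 library moved it between 0.53 and 0.97 (edgeR adjusted p up to 0.27), and over all alternatives the adjusted p ran up to 0.64.

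Under normoxia-hyperoxia C3 reached 48.02, 59.6 and 68.7 CPM in C57BL/6J and 146, 112 and 161 CPM in DBA/2J. All of these libraries lay above both the 24 h controls and the normoxia libraries of their strain. The log2 fold change was 1.60 ± 0.16 against 24 h controls (edgeR adjusted p = 2.8e-06) and 1.15 ± 0.12 against normoxia (edgeR adjusted p = 2.3e-06).

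Factor B, the protease subunit of the alternative pathway convertase, had the largest log2 changes of the 8 measured members between normoxia and the 24 h controls or normoxia-hyperoxia in the mean over both strains. In C57BL/6J its level was 29.1, 38.01 and 32.5 CPM in 24 h controls, 290, 201 and 272 CPM under normoxia, and 16.6, 23.6 and 14.3 CPM under normoxia-hyperoxia. In DBA/2J the same 3 states gave 180, 62.8 and 92.9 CPM, then 621, 543 and 570 CPM, then 73.4, 50.7 and 48.6 CPM. Normoxia stood clear above the other states in both strains, and in C57BL/6J normoxia-hyperoxia stood clear below the controls.

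Cfb rose by 2.93 ± 0.24 on the log2 scale under normoxia against 24 h controls (edgeR adjusted p = 9.5e-07) and fell by 3.65 ± 0.17 from normoxia to normoxia-hyperoxia (edgeR adjusted p = 1.1e-09). Against 24 h controls the normoxia-hyperoxia value was -0.74 ± 0.25 (edgeR adjusted p = 0.024). That last call rests on few libraries. Leaving out C57BL/6J control replicate 2, C57BL/6J normoxia-hyperoxia replicate 1 or DBA/2J normoxia-hyperoxia replicate 3 gave adjusted p values of 0.053, 0.059 and 0.066, and without DBA/2J control replicate 1 the value was -0.48. From 6 h to 24 h in controls Cfb fell by 2.02 ± 0.25 (edgeR adjusted p = 1.6e-05). The C57BL/6J means were 144.5 ± 47.5 CPM at 6 h and 33.2 ± 4.49 CPM at 24 h (SD, n = 3), and the DBA/2J means were 320 ± 28.7 and 112 ± 60.9 CPM.

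C2, the protease subunit of the classical and lectin convertase and the neighbour of Cfb, followed the same order at lower levels. In C57BL/6J it was 3.43, 7.46 and 6.70 CPM in 24 h controls, 20.8, 14.01 and 19.8 CPM under normoxia, and 2.18, 4.14 and 3.58 CPM under normoxia-hyperoxia. DBA/2J gave 24.1, 10.6 and 13.6 CPM, then 62.1, 52.4 and 58.5 CPM, then 12.8, 6.94 and 10.5 CPM. Normoxia was clear above both other states in each strain, and the other states overlapped. The log2 changes were 2.02 ± 0.23 for normoxia against 24 h controls (edgeR adjusted p = 1.0e-05), -2.54 ± 0.17 for normoxia-hyperoxia against normoxia (edgeR adjusted p = 2.3e-08) and -1.63 ± 0.26 for 24 h against 6 h (edgeR adjusted p = 1.3e-04). Against 24 h controls the normoxia-hyperoxia value of -0.55 ± 0.27 did not pass (edgeR adjusted p = 0.088). It did with DESeq2, with a replicate block, without the filter, and without C57BL/6J control replicate 1 or DBA/2J control replicate 2.

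C4b, the C4 that supplies the classical and lectin convertase, was low in C57BL/6J: 0.747, 2.596 and 1.94 CPM in 24 h controls (15, 56 and 24 counts), 4.02, 3.91 and 5.61 CPM under normoxia, and 0.905, 1.87 and 1.71 CPM under normoxia-hyperoxia. In DBA/2J the levels were 44.96, 12.7 and 13.6 CPM, then 141, 63.3 and 75.9 CPM, then 12.8, 5.70 and 6.87 CPM. Each normoxia library lay above all other 24 h libraries of these states in its strain. The normoxia-hyperoxia libraries overlapped the controls in C57BL/6J, and in DBA/2J the highest of them was just above the lowest control. C4b rose by 1.94 ± 0.49 on the log2 scale under normoxia (edgeR adjusted p = 0.0045) and fell by 2.57 ± 0.32 from normoxia to normoxia-hyperoxia (edgeR adjusted p = 2.9e-05) and by 1.64 ± 0.45 from 6 h to 24 h (edgeR adjusted p = 0.0077). The normoxia-hyperoxia value against 24 h controls was -0.65 ± 0.44 (edgeR adjusted p = 0.21), which passed with a replicate block and without the filter. Leaving out 1 library moved it between -0.89 and -0.24, with edgeR adjusted p up to 0.52. From normoxia to normoxia-hyperoxia the value was -1.56 ± 0.52 in C57BL/6J and -3.58 ± 0.39 in DBA/2J, and the difference of -2.02 ± 0.67 did not pass (edgeR adjusted p = 0.065), while DESeq2 gave 0.010. It also passed with a replicate block, without the filter, and without DBA/2J normoxia replicate 2 or DBA/2J normoxia-hyperoxia replicate 1.

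Beside these 3 genes, the proximal tubule markers Slc34a1, Lrp2 and Cubn moved in the same conditions. Across the 16 group means of log2 CPM, which share libraries and depth, Pearson's r was 0.979 between Cfb and Slc34a1, 0.945 between C2 and Slc34a1 and 0.720 between C4b and Slc34a1, and 0.983 between C2 and Cfb. All 8 kidney epithelium markers were called lower at 24 h than at 6 h, and 7 were higher and 1 lower under normoxia than in 24 h controls. Under normoxia-hyperoxia against normoxia 3 were higher and 3 lower. Other members also went with these markers across the same 16 means. For Cfi, r was 0.829 with Slc34a1, 0.859 with Lrp2 and 0.887 with Cubn, and for C5ar1 it was -0.814, -0.869 and -0.871. Cd59a had an r of 0.947 and Cd55 of 0.802 with Umod, the uromodulin gene of the thick ascending limb, against 0.184 for Cfb. Leukocyte markers differed in sign for Cfi, Cd55 and Cd59a. In that order r was -0.863, -0.956 and -0.906 with Itgam and -0.715, -0.660 and -0.583 with Cd68. With Ptprc it was 0.715, 0.717 and 0.778, and with Adgre1 0.036, -0.016 and 0.212. With the endothelial marker Pecam1 r was -0.804 for C4b, -0.747 for C2 and -0.722 for Cfb. The part of these cells in the results for the members was not tested.

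Factor I, the protease that degrades C3b and C4b, had few counts, between 4 and 155 per library. It was at 0.398, 1.25 and 0.727 CPM in C57BL/6J 24 h controls and at 4.42, 3.71 and 4.69 CPM under normoxia, with no overlap. In DBA/2J the values were 3.12, 1.02 and 1.02 CPM, and 6.31, 3.49 and 3.03 CPM, where the highest control was just above the lowest normoxia library. Cfi rose by 2.12 ± 0.33 on the log2 scale (edgeR adjusted p = 5.5e-05). It fell by 2.23 ± 0.37 from 6 h to 24 h (edgeR adjusted p = 1.2e-04) and by 1.39 ± 0.28 from normoxia to normoxia-hyperoxia (edgeR adjusted p = 4.0e-04). Against 24 h controls the normoxia-hyperoxia value was 0.72 ± 0.39 (edgeR adjusted p = 0.12), and without DBA/2J control replicate 1 it was 1.09 (edgeR adjusted p = 0.016). It passed too with a replicate block (adjusted p = 0.026) and without the filter (0.019). Over all fits that left out 1 library the value ran from 0.31 to 1.09, with edgeR adjusted p up to 0.49.

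Cd59a, the membrane inhibitor of pore assembly, differed between all 3 states at 24 h. In C57BL/6J it stood at 30.1, 30.1 and 29.7 CPM in 24 h controls, 61.2, 71.4 and 66.5 CPM under normoxia and 76.7, 75.1 and 76.8 CPM under normoxia-hyperoxia. In DBA/2J the values were 17.9, 21.3 and 19.5 CPM, then 29.7, 33.4 and 28.8 CPM, then 44.3, 47.5 and 47.9 CPM. The 3 states did not overlap in either strain. Cd59a rose by 1.17 ± 0.06 on the log2 scale under normoxia (edgeR adjusted p = 5.7e-11) and by 1.47 ± 0.06 under normoxia-hyperoxia (edgeR adjusted p = 3.9e-11), both against 24 h controls, and it was 0.31 ± 0.06 higher under normoxia-hyperoxia than under normoxia (edgeR adjusted p = 1.0e-04). From 6 h to 24 h it fell by 1.19 ± 0.06 (edgeR adjusted p = 6.1e-10).

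The rise of Cd59a under normoxia was 1.36 ± 0.09 in C57BL/6J and 0.97 ± 0.09 in DBA/2J. It was the only member whose response differed between the strains at the threshold, by -0.39 ± 0.12 (edgeR adjusted p = 0.045), 1 of 8 members beside 17% of all genes tested for the same difference. Leaving out 1 library at a time moved that adjusted p between 0.0093 and 0.11, and 6 of the 12 such fits lost the call. For the strain difference in the other 3 main responses edgeR called 0 members, beside 1.43% of genes for normoxia-hyperoxia against 24 h controls, 18.2% for normoxia-hyperoxia against normoxia and 0.69% for 24 h against 6 h. At an unadjusted p under 0.05 these counts were 0, 3 and 0 of 8, beside 15.4%, 32.7% and 13.2% of all genes. With DESeq2 they were 0, 1 and 0, beside 3.98%, 20% and 2.12% of genes.

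CD55, which dissociates convertases on cell surfaces, had the narrowest range of group means. In C57BL/6J it was at 12.6, 9.41 and 12.4 CPM in 24 h controls and at 16.1, 15 and 15.8 CPM under normoxia. DBA/2J gave 9.31, 9.49 and 10.96 CPM and 12.04, 10.7 and 14.5 CPM. Normoxia libraries lay above all controls in C57BL/6J, and the groups overlapped in DBA/2J. Cd55 rose by 0.66 ± 0.10 on the log2 scale (edgeR adjusted p = 1.3e-05) and by 0.44 ± 0.13 under normoxia-hyperoxia (edgeR adjusted p = 0.0065), and fell by 0.76 ± 0.10 from 6 h to 24 h (edgeR adjusted p = 4.7e-06). Between the oxygen conditions the value was -0.20 ± 0.12 (edgeR adjusted p = 0.13), and without C57BL/6J normoxia-hyperoxia replicate 3 it was -0.31 (edgeR adjusted p = 0.023). Over all fits that left out 1 library it ran from -0.31 to -0.12, with edgeR adjusted p up to 0.30.

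C5ar1, the receptor for C5a, moved against the other members with time and under normoxia. In C57BL/6J its level was 1.85, 3.33 and 2.38 CPM in 6 h controls, 5.77, 8.48 and 8.64 CPM in 24 h controls, 1.09, 1.93 and 1.99 CPM under normoxia, and 3.41, 5.25 and 4.59 CPM under normoxia-hyperoxia. In DBA/2J it was 2.88, 1.76 and 3.03 CPM, then 8.85, 9.44 and 6.83 CPM, then 0.860, 1.20 and 1.05 CPM, then 4.31, 6.05 and 6.57 CPM. In each strain the 24 h controls were highest, normoxia-hyperoxia lay below them and above normoxia, and none of these 3 states overlapped.

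C5ar1 rose by 1.44 ± 0.18 on the log2 scale from 6 h to 24 h (edgeR adjusted p = 5.6e-06). It fell by 2.34 ± 0.17 under normoxia (edgeR adjusted p = 3.5e-09) and by 0.51 ± 0.16 under normoxia-hyperoxia (edgeR adjusted p = 0.010), both against 24 h controls, and was 1.84 ± 0.19 higher under normoxia-hyperoxia than under normoxia (edgeR adjusted p = 4.1e-07). Hc, the gene for the C5 protein from which its ligand is cut, was at most 0.474 CPM in any library.

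Myeloid markers moved in both directions in 3 of the 4 comparisons, and between the oxygen conditions those called were all higher, as C5ar1 was. Of 7 macrophage markers (Adgre1, Csf1r, Cd68, Ptprc, Mrc1, Cd14 and Lyz2), 1 rose and 4 fell from 6 h to 24 h, 4 rose and 2 fell under normoxia against 24 h controls, and 6 rose and 1 fell under normoxia-hyperoxia against them. Under normoxia-hyperoxia against normoxia 5 of the 7 were higher and 0 lower, with a median log2 fold change of 0.78, and of 4 neutrophil markers tested 2 were higher and 0 lower. The summed level of the 7 macrophage markers was 117.8 to 157.5 CPM in C57BL/6J 6 h controls, 136.8 to 171.7 at 24 h, 154.1 to 177.8 under normoxia and 174.6 to 222.6 under normoxia-hyperoxia. In DBA/2J the sums were 181.3 to 221 CPM, 228 to 264, 121.2 to 143.1 and 410.6 to 470. Across the 16 group means, r with C5ar1 was 0.893 for Cd68, 0.854 for Itgam, 0.157 for Adgre1 and -0.655 for Ptprc. The neutrophil marker Ly6g was at most 0.191 CPM, with all libraries at 0 in 11 of 16 groups, and the 6 neutrophil markers (S100a8, S100a9, Csf3r, Cxcr2, Ly6g and Mmp8) together lay between 2.14 and 16.1 CPM, highest in DBA/2J under normoxia-hyperoxia. The part of these cells in the results for C5ar1 was not tested.

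Markers of other cells also moved with the conditions. All 5 lymphocyte markers measured (Cd3e, Cd3d, Cd79a, Ms4a1 and Nkg7) were called higher under normoxia and under normoxia-hyperoxia than in 24 h controls, with median log2 fold changes of 2.57 and 2.33, and 3 of 4 tested were lower at 24 h than at 6 h. Their summed level was 1.29 to 1.94 CPM in C57BL/6J 24 h controls, 5.94 to 6.21 under normoxia and 4.05 to 5.85 under normoxia-hyperoxia, and in DBA/2J 2.71 to 4.01, 2.62 to 5.06 and 7.35 to 12.1 CPM. Nkg7 was at 0 in all libraries of 2 of 16 groups, and the other lymphocyte markers in none. Of 5 endothelial markers (Pecam1, Cdh5, Kdr, Tie1 and Emcn), 5 were higher under normoxia-hyperoxia than under normoxia, and in DBA/2J 5 were lower than in C57BL/6J in 6 h controls, 3 in 24 h controls, 4 under normoxia and 0 under normoxia-hyperoxia. Their summed level in 6 h controls was 1005 to 1355 CPM in C57BL/6J and 669.5 to 919.3 CPM in DBA/2J. Of 5 fibroblast and mesangial markers (Pdgfrb, Col1a1, Dcn, Lum and Pdgfra), 3 fell with time, 2 fell under normoxia, and 4 were lower in DBA/2J than in C57BL/6J under normoxia. The part of these cells in the results for the complement genes was not tested.

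The strains were compared within each untreated or oxygen state. C4b, C2 and Cfb were higher in DBA/2J than in C57BL/6J without overlap in 8 of 8 conditions, drugs included, as were 6.62% of 18567 genes. C3 was so in 6 of 8 conditions (14.9% of genes in at least 6), and Cd59a was lower in DBA/2J in 7 of 8 (3.32% in at least 7). Cfi and C5ar1 overlapped in all 8 conditions and Cd55 in 6. The conditions may repeat the same mice, which the labels do not settle, so that these counts of conditions need not be independent. The ratio of DBA/2J to C57BL/6J group means ran from 5.65 to 20.7 for C4b, from 2.19 to 3.37 for Cfb, from 2.15 to 3.16 for C2, from 1.54 to 5.72 for C3 and from 0.462 to 0.713 for Cd59a. Leaving out 1 library in turn, an alternative chosen after seeing the data, moved some of these ratios by over 1.5 times. For C3 the ratio fell from 5.72 to 1.61 under cyclosporin A at 24 h without DBA/2J replicate 3, from 1.83 to 0.908 under tunicamycin at 24 h without DBA/2J replicate 1, and from 2.6 to 1.54 in 6 h controls without DBA/2J replicate 1. For C4b, leaving out DBA/2J replicate 1 lowered it from 9.47 to 5.71 and from 8.68 to 4.38 under tunicamycin at 6 h and 24 h, from 14.6 to 8.74 and from 12.5 to 7.95 under cyclosporin A, and from 13.5 to 7.47 in 24 h controls.

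**Figure D4:**
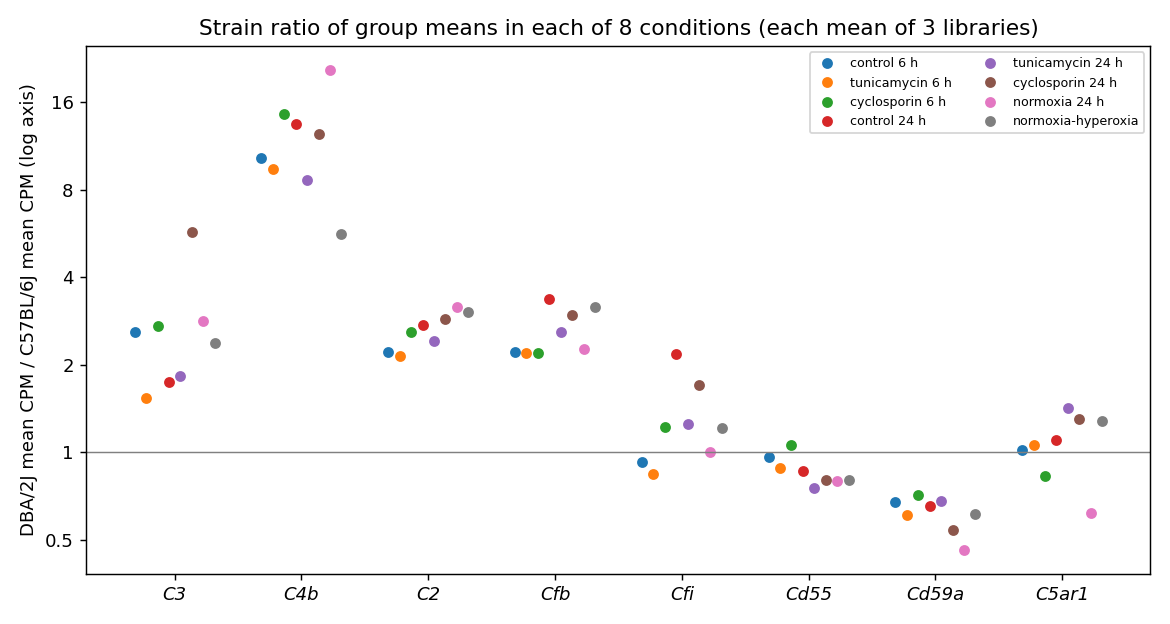
Ratio of the DBA/2J group mean to the C57BL/6J group mean in CPM (log axis, 3 libraries per mean) for 8 members in each of 8 conditions (colours). C4b lies between 5.65 and 20.7 and Cd59a between 0.462 and 0.713.

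By edgeR, 3 of 8 members differed between the strains in 6 h controls (C4b, Cfb and Cd59a), beside 26.2% of all genes, and 4 in 24 h controls (C4b, Cfb, C2 and Cd59a), beside 22.2%. Under normoxia 5 differed (C3, C4b, C2, Cfb and Cd59a), beside 46.8%, and the same 5 under normoxia-hyperoxia, beside 25.7%. In 6 h controls C3 and C2 missed the threshold narrowly (edgeR adjusted p = 0.051 for each). They passed with RLE factors, DESeq2, the replicate block and no filter, which gave 5 members each. The Cfb call at 6 h (1.01 ± 0.34, edgeR adjusted p = 0.047) was lost in 9 of 12 fits that left out 1 library, with adjusted p up to 0.16, and with all 48 libraries fitted together (0.98, adjusted p = 0.076).

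C4b was 3.22 ± 0.59 higher in DBA/2J on the log2 scale in 6 h controls (edgeR adjusted p = 0.0032), 3.73 ± 0.69 in 24 h controls (edgeR adjusted p = 0.0033), 4.46 ± 0.41 under normoxia (edgeR adjusted p = 1.5e-05) and 2.44 ± 0.50 under normoxia-hyperoxia (edgeR adjusted p = 0.0056). Over all fits that left out 1 library, the lowest of these differences were 2.72, 2.86, 4.00 and 1.98. For Cfb the 24 h, normoxia and normoxia-hyperoxia differences were 1.73 ± 0.35, 1.26 ± 0.21 and 1.57 ± 0.23, and for C2 they were 1.44 ± 0.38, 1.73 ± 0.21 and 1.56 ± 0.26, with edgeR adjusted p between 4.0e-05 and 0.019. The C2 call in 24 h controls was lost without C57BL/6J control replicate 1 or DBA/2J control replicate 1 (adjusted p = 0.076 and 0.081).

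C3 was 1.57 ± 0.18 higher in DBA/2J under normoxia (edgeR adjusted p = 2.3e-05) and 1.16 ± 0.17 under normoxia-hyperoxia (edgeR adjusted p = 3.9e-04), the latter not called when all 48 libraries were fitted together (adjusted p = 0.12). In 24 h controls the difference was 0.78 ± 0.42 (edgeR adjusted p = 0.23). It was called without the low-count filter (0.73 ± 0.12, edgeR adjusted p = 5.2e-08), with an SE far below the 0.42 of the main fit. It was also called without DBA/2J 6 h control replicate 1 (edgeR adjusted p = 0.019), and over all alternatives the adjusted p ran up to 0.47. In 6 h controls it was 1.23 ± 0.41 (edgeR adjusted p = 0.051), and 0.48 without DBA/2J replicate 1. Over all alternatives the adjusted p there ran from 3.4e-24, without the filter and with an SE of 0.12, to 0.16. Cd59a was lower in DBA/2J, with log2 differences of -0.72 ± 0.08, -0.65 ± 0.09, -1.04 ± 0.08 and -0.81 ± 0.08 in 6 h controls, 24 h controls, normoxia and normoxia-hyperoxia, with edgeR adjusted p between 1.3e-07 and 1.1e-04.

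C4a showed a strain difference of the same sign as C4b. C57BL/6J libraries held 8 to 53 counts of C4a and DBA/2J libraries 19 to 1744. C4a was 5.06 ± 0.33 higher in DBA/2J in 6 h controls, 3.93 ± 0.34 in 24 h controls and 5.05 ± 0.19 under normoxia (edgeR adjusted p between 6.8e-11 and 4.4e-06). Under normoxia-hyperoxia the difference was 0.66 ± 0.23 (edgeR adjusted p = 0.045), and 0.38 without DBA/2J replicate 1 (adjusted p = 0.31). Of the 12 fits that left out 1 library, 8 lost that call, and so did the replicate block (adjusted p = 0.075) and all 48 libraries fitted together (0.23). Over all alternatives its adjusted p ran from 0.0078 to 0.31. Reads of the shared windows can be given to either gene, and their part in the C4b values was not tested.

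Within DBA/2J, replicate 1 had the highest level of the 3 libraries in 8 of 8 conditions for C4b, Cfb and Cfi and in 7 of 8 for C2. In C57BL/6J replicate 1 was highest in 3, 3, 2 and 3 conditions. The count of C4a per count of C4b in DBA/2J was between 0.325 and 0.503 in replicate 1 and between 0.401 and 1.04 in replicates 2 and 3, and replicate 1 was lowest in 7 of 8 conditions. The labels do not say whether equal replicate numbers mark 1 mouse.

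**Figure D5:**
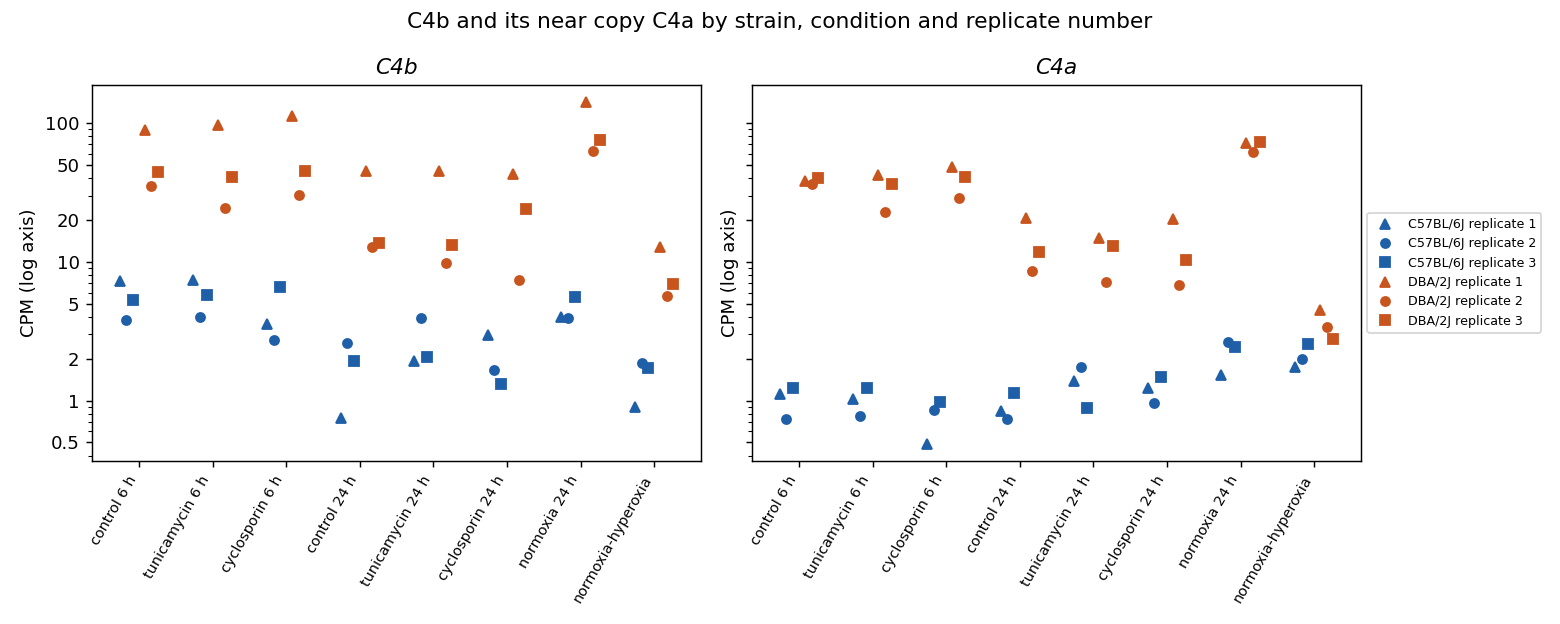
C4b (left) and C4a (right) in CPM (log axis) in all 48 libraries by condition, with the strain as colour and the replicate number as symbol. DBA/2J replicate 1 is the highest orange point for C4b in all 8 conditions, and the strains come close for C4a only under normoxia-hyperoxia.

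Tunicamycin and cyclosporin A were each compared with controls at the same time. In none of the 4 comparisons was a member called by edgeR or by DESeq2. At an unadjusted p under 0.05 edgeR gave 0 members for tunicamycin at 6 h and at 24 h, 0 for cyclosporin A at 6 h and 1 at 24 h (Cd55, -0.25 ± 0.10, named after its value was seen). Among all genes edgeR called 0% of 16551 for tunicamycin at 6 h, 1.38% of 16905 at 24 h, and 0% of 16538 and of 16887 for cyclosporin A at 6 h and 24 h. DESeq2 called 0%, 3.12%, 0.308% and 0.13% in the same order. At an unadjusted p under 0.05 the shares of all genes were 1.7% and 12.9% for tunicamycin and 4.44% and 6.56% for cyclosporin A. The members' log2 fold changes lay between -0.42 and 0.05 for tunicamycin at 6 h, -0.40 and 0.52 at 24 h, and between -0.49 and 0.23 and -0.29 and 0.63 for cyclosporin A. Both drugs share the same controls at each time.

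The widest of these values was that of C3 under cyclosporin A at 24 h, 0.63 ± 0.53. Its DBA/2J libraries stood at 43.8, 27.5 and 308 CPM, against 55.0, 44.8 and 33.8 CPM in the controls. One library (replicate 3) was above all the others of that strain, and without it the value was -0.28. The C3 libraries of DBA/2J under tunicamycin at 24 h were also uneven, at 132, 25.5 and 39.9 CPM.

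Other genes of the system were read from 4 lists with 43 genes, of which 27 or 28 passed the filter. In 24 h against 6 h controls 6 rose and 15 fell, under normoxia against 24 h controls 14 rose and 8 fell, under normoxia-hyperoxia against 24 h controls 11 rose and 3 fell, and between the oxygen conditions 14 rose and 7 fell. Over all genes 72%, 82%, 68.2% and 73.5% were called in these comparisons in either direction, so that the lists, with 21 of 28, 22 of 28, 14 of 27 and 21 of 28 called, lay near or below the background. In the 4 drug comparisons 0 were called by edgeR.

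C8a, C8g, Mbl1 and C4a rose under normoxia and fell under normoxia-hyperoxia, as Cfb did. C8a, a subunit of the membrane pore, averaged 0.438 CPM in C57BL/6J 24 h controls, 17.8 CPM under normoxia and 0.585 CPM under normoxia-hyperoxia, and 1.77, 18.7 and 1.42 CPM in DBA/2J. C8a rose by 4.60 ± 0.29 on the log2 scale under normoxia and fell by 4.32 ± 0.30 from there to normoxia-hyperoxia. C8g, a further subunit, rose by 3.34 ± 0.18 and fell by 2.97 ± 0.14, and Mbl1, a mannose-binding lectin, rose by 3.60 ± 0.24 and fell by 4.05 ± 0.36. C4a rose by 2.09 ± 0.27 and fell by 2.25 ± 0.15 in the same comparisons. With time in controls C8g, C8a and Cpn1, which encodes the catalytic subunit of carboxypeptidase N, fell by 2.24 ± 0.25, 2.13 ± 0.30 and 1.75 ± 0.19. The edgeR adjusted p of these changes was 1.7e-05 or smaller.

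Itgam, C3ar1 and Masp1 rose with time and fell under normoxia, as C5ar1 did. From 6 h to 24 h Itgam, the alpha chain of complement receptor 3, rose by 2.85 ± 0.23, Masp1, a lectin pathway protease, by 1.63 ± 0.21 and C3ar1, the receptor for C3a, by 1.40 ± 0.25. Under normoxia against 24 h controls Masp1 fell by 3.11 ± 0.23, Itgam by 2.45 ± 0.12 and C3ar1 by 1.75 ± 0.17. Under normoxia-hyperoxia against 24 h controls Masp1 fell by 2.33 ± 0.22 and Itgam by 1.91 ± 0.18, while Itgax rose by 2.46 ± 0.24, C1qb, a chain of the classical pathway's recognition protein, by 1.39 ± 0.16 and Cd59b by 1.495 ± 0.22. Against normoxia, normoxia-hyperoxia had higher Clu, the fluid-phase pore inhibitor clusterin, by 2.28 ± 0.21, higher C3ar1 by 1.58 ± 0.13 and higher Itgb2 by 1.19 ± 0.16. The edgeR adjusted p of these changes was 2.4e-04 or smaller.

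Cd59b rose under normoxia by 1.41 ± 0.20 and fell from 6 h to 24 h by 1.24 ± 0.21, and its value between the oxygen conditions was 0.10 ± 0.15. Cr1l, the rodent membrane regulator Crry, changed little: 0.20 ± 0.06 under normoxia against 24 h controls and -0.19 ± 0.05 under normoxia-hyperoxia against normoxia, and it did not pass with time (-0.06 ± 0.07) or under normoxia-hyperoxia against 24 h controls (-0.01 ± 0.06). Cd55b averaged at most 0.0559 CPM in any group.

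Between the strains Cpn1 was lower in DBA/2J, by log2 differences of -4.38 ± 0.24 in 6 h controls, -3.62 ± 0.28 in 24 h controls, -3.89 ± 0.23 under normoxia and -3.14 ± 0.31 under normoxia-hyperoxia (edgeR adjusted p of 7.2e-06 or smaller). C8a was 1.49 ± 0.37 and 1.91 ± 0.49 higher in DBA/2J in 6 h and 24 h controls (edgeR adjusted p = 0.0083 and 0.011), the latter lost without C57BL/6J or DBA/2J control replicate 1. Cr2, complement receptor 2, was lower in DBA/2J (-2.06 ± 0.34 under normoxia and -1.86 ± 0.35 under normoxia-hyperoxia), and so was C7 (-2.43 ± 0.38 and -1.36 ± 0.37, edgeR adjusted p between 1.2e-04 and 0.014). The C7 call under normoxia-hyperoxia was lost without C57BL/6J replicate 2 or DBA/2J replicate 3 of that condition (adjusted p = 0.070 and 0.063), and with all 48 libraries fitted together (-1.34, adjusted p = 0.12). Under normoxia-hyperoxia Itgam was 1.08 ± 0.23 higher in DBA/2J (0.67 without DBA/2J replicate 1), C3ar1 0.97 ± 0.17 and Itgb2 0.94 ± 0.21, with edgeR adjusted p between 8.3e-04 and 0.0065. All 7 macrophage markers were also higher in DBA/2J in that condition, and their part in these differences was not tested.

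Genes with the most similar pattern to each member were found among 12251 genes by Pearson's r over the 16 group means of log2 CPM, as a description over groups that share depth and strain. For Cfb they included Gas2 (0.998) and Nat8f2 (0.996). They were for C2 Fcamr (0.992), Cyp2j13 (0.991) and Acsm2 (0.989), and for C4b Crym (0.987), Ccl28 (0.984) and Angptl7 (0.983). Cd59a was nearest to ccdc198 (0.992), Efemp1 (0.987) and Bag4 (0.985), C5ar1 to Zc3hav1 (0.983), Runx1 (0.980) and Nras (0.979), and Cfi to Dnajc12 (0.974), Lamtor2 (0.972) and Cep57l1 (0.970). Cd55 was nearest to Rabgap1l (0.968), Dmxl1 and Ppp2r3a (0.967 each). C3 had the least close neighbours, Cfap54 (0.914), Stra6 (0.905) and Prc1 (0.902).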

How the data were processed

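Stranded mRNA libraries were made with an Illumina ligation kit from RNA of 48 slice cultures, per the labels' protocols. The authors deposited 1 table of raw counts for 55487 gene IDs, without normalization. The submitters' processing notes name bcl2fastq 2.20.0, FastQC 0.11.8, STAR 2.7.9a, featureCounts 1.5.1 and GRCm38. The strand setting, the annotation release and the treatment of reads shared by genes are not given in the sources used here. GRCm38 is a C57BL/6J genome, and how reads with DBA/2J alleles were mapped was not tested. A gene name table matched 55141 of the IDs.

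Groups came from the labels. Each comparison was fitted on its 12 libraries (2 strains, 2 conditions) with edgeR 4.0.16 in R 4.3.3: TMM factors, the default filter on low counts, a robust quasi-likelihood F test for the mean over strains, each strain, their difference and the strain contrast, and Benjamini-Hochberg adjustment over all genes in a contrast. A call is an adjusted p under 0.05. CPM are counts scaled to the library total, and errors of log2 fold changes are SE. Overlap of libraries was read from these CPM, without the TMM factors of the tests, so that the mitochondrial share of a library enters it. The C57BL/6J mean of C3 was 25.5 CPM in 24 h controls and 22.9 CPM under normoxia, but 23.4 and 24.8 CPM with TMM factors. Precision is limited by 3 libraries a group. The labels number biological replicates without naming mice, so that p-values measure the spread between these samples. Alternatives were RLE factors, no filter, DESeq2 1.42.0, all 48 libraries in 1 fit, a replicate block, each library left out in turn and, for levels, CPM with TMM factors or without mitochondrial genes. Without the filter, the SE of some members was much smaller at nearly the same value. For C3 between strains in 6 h controls it was 0.12, against 0.39 with RLE factors and 0.44 with DESeq2. The reason was not tested, and a call gained only without the filter carries little weight.

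The members and lists were chosen with earlier results of these data known. All members are named in every comparison. From the other complement lists, the 3 largest rises and falls with a call and a mean log2 CPM of at least 1 could be named, and always C4a, Cd59b, Cd55b, Hc and Cr1l. The 3 genes nearest to each member are named without a p. A few genes are not reported here.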

Additional observations from a re-analysis of the deposited data

Results flagged for a closer look

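The response of Cd59a to normoxia differed between the strains by a test of the difference itself. Against 24 h controls it rose by 1.36 ± 0.09 on the log2 scale in C57BL/6J and by 0.97 ± 0.09 in DBA/2J (SE), a difference of -0.39 ± 0.12 (edgeR's quasi-likelihood test with Benjamini-Hochberg adjustment, adjusted p = 0.045). The C57BL/6J libraries went from 29.7 to 30.1 CPM in controls to 61.2 to 71.4 CPM, and the DBA/2J libraries from 17.9 to 21.3 CPM to 28.8 to 33.4 CPM. For the same difference 17% of all genes were called. The call was lost with the replicate block (adjusted p = 0.052), without the low-count filter (0.115) and with all 48 libraries fitted together (0.117).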

How the results depend on the processing

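Of 2091 values of single genes under an alternative, 1989 kept their direction and their side of the threshold, 57 lost a call, 39 gained one and 6 changed sign. The sign changes were all of values that had not passed: C4a under normoxia-hyperoxia against 24 h controls (-0.32 to 0.025 over the fits without 1 library, positive without DBA/2J control replicate 1), Cr1l in the same comparison (0.0073 with RLE factors, 0.0074 with DESeq2, and -0.059 to 0.013 without 1 library, positive without C57BL/6J normoxia-hyperoxia replicate 1), Cd59b between the oxygen conditions (-0.0051 to 0.16, negative without C57BL/6J normoxia-hyperoxia replicate 3), and C3 under cyclosporin A at 24 h (-0.28 to 0.87, negative without DBA/2J replicate 3). The cause was not tested. For normoxia-hyperoxia against 24 h controls, 8 members were called without the filter on low counts (38.3% of all genes), and 4 to 6 when 1 library was left out. The strain difference in response was called for 3 members under normoxia without the filter (10.7% of all genes), 2 with DESeq2 (19%), 0 with all 48 libraries (10.9%) and 0 to 1 when 1 library was left out. For the same difference between the oxygen conditions, the filter left out gave 1 (10.6% of genes), DESeq2 1 (20%) and single libraries left out 0 to 1. Without the filter it was 1 for normoxia-hyperoxia against 24 h controls (3.56%) and 1 for time in culture (2.55%). Between the strains in 6 h controls, 5 members were called with RLE factors (26.3% of genes), 5 without the filter (15.6%) and 5 with DESeq2 (28.1%), and 2 to 4 when 1 library was left out. Group levels moved by less than 1 SD in 112 of 128 cases with TMM factors and in 100 of 128 without mitochondrial genes. Cfi and, in C57BL/6J, C4b had few counts, which limits their precision.

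Replicate numbers are shared by all groups, but neither the labels nor the data settle whether they pair the samples, and in none of the 8 comparisons of conditions was every same-numbered correlation over 0.1. Same-numbered libraries deviated together with a correlation over 0.1 in 1 of 6 pairs for normoxia against 24 h controls (-0.069 to 0.139), 4 of 6 for normoxia-hyperoxia, 4 of 6 between the oxygen conditions, 0 of 6 for time, and, for tunicamycin and cyclosporin A, 5 and 3 of 6 at 6 h and 4 and 2 of 6 at 24 h. All 3 pairs were over 0.1 in C57BL/6J for normoxia-hyperoxia against 24 h controls (0.136 to 0.168) and for tunicamycin at 6 h (0.11 to 0.313), and in DBA/2J between the oxygen conditions (0.13 to 0.303) and for tunicamycin at 24 h (0.202 to 0.216). DBA/2J replicate 1 was highest for C4b, Cfb and Cfi in 8 of 8 conditions. As a hint from the data only, libraries were nearest to their own number in 3, 5, 5 and 2 of 6 cases in the 4 comparisons without drugs. With the replicate block, 8 members were called for normoxia-hyperoxia against 24 h controls in place of 5 (68.9% of all genes), and 5 for the strains in 6 h controls in place of 3 (26.7%). Strain differences in response numbered 0 for normoxia (15.4% of genes) and 1 between the oxygen conditions (22.8%). With the block 8 members were called for normoxia (81.5% of genes) and for time (70.7%), and 7 between the oxygen conditions (74.1%).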
